A study of Homo sapiens with 6 samples.

Results

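Tubulin mRNAs were followed in AsPC-1 cells, a line grown from a human pancreatic cancer. The 10 genes described here are all the rows of the deposited expression table that carry the symbol of one of 4 alpha tubulins (TUBA1A, TUBA1B, TUBA1C, TUBA4A) or 6 beta tubulins (TUBB, TUBB2A, TUBB2B, TUBB3, TUBB4B, TUBB6), out of 26228 rows. The rule takes rows by gene name, and the names were chosen with earlier results of these data known. The cells were given DON (6-Diazo-5-oxo-l-norleucine), which resembles glutamine and inhibits enzymes that use it (3 libraries), or vehicle (3 libraries), in each case for 24 h in medium without serum. The study asked which genes DON changes. The labels do not say whether the replicates of a group came from separate cultures, so a p-value here speaks only to the scatter among 3 libraries a group, which may be technical.

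Alpha and beta tubulin pair into the heterodimer from which microtubules are built, and human cells carry several genes, or isotypes, for each. Microtubules form the mitotic spindle and the tracks for vesicle transport. The cell holds tubulin mRNA in balance with free tubulin: excess dimers trigger decay of tubulin mRNAs that are being translated, through the factor TTC5, which binds the first residues of the emerging chain.

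The start of the coding sequence is shown first because it encodes that recognised stretch and because it shows how alike the isotypes are. Each line gives the first 30 coding bases, 5′ to 3′, from the GENCODE transcripts, with the first 12 bases (4 codons) in capitals.
TUBA1B: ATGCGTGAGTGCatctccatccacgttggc
TUBA1C: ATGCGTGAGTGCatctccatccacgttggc
TUBA4A: ATGCGTGAATGCatctcagtccacgtgggg
TUBB4B: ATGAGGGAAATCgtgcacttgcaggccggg
TUBB: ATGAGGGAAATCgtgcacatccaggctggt
TUBB6: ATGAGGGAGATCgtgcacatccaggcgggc
All 30 bases were the same in TUBA1B, TUBA1C and TUBA1A, 3 members in all. TUBB4B and TUBB held the same first 12 bases, and TUBB6 held the same first 12 as TUBB3.

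The largest changes among the members were those of TUBA1B and TUBB4B, both abundant. TUBA1B, the main alpha tubulin of many dividing cells, and TUBB4B, a widely expressed beta tubulin, fell 3.74-fold and 2.48-fold with DON by the ratio of mean FPKM (fragments per transcript length and library size). TUBA1C, an alpha isotype encoded near TUBA1B, fell 1.31-fold. No member rose. The member TUBB2B was under 1 FPKM in every library and was not tested, so 9 of 10 were tested. Of these 9, 3 fell, 0 rose and 6 were not called by limma at a Benjamini-Hochberg adjusted p of 0.05. Across all 11471 tested genes 20.6% fell and 18.3% rose, 38.9% in all. The median log2 fold change of the 9 tested members was -0.21, against -0.012 over all tested genes. A fall of at least 1 on the log2 scale was called in 4.16% of tested genes, and TUBA1B and TUBB4B were among them. In bulk RNA, fewer cells of a type and less RNA per cell cannot be told apart.

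**Figure D1:**
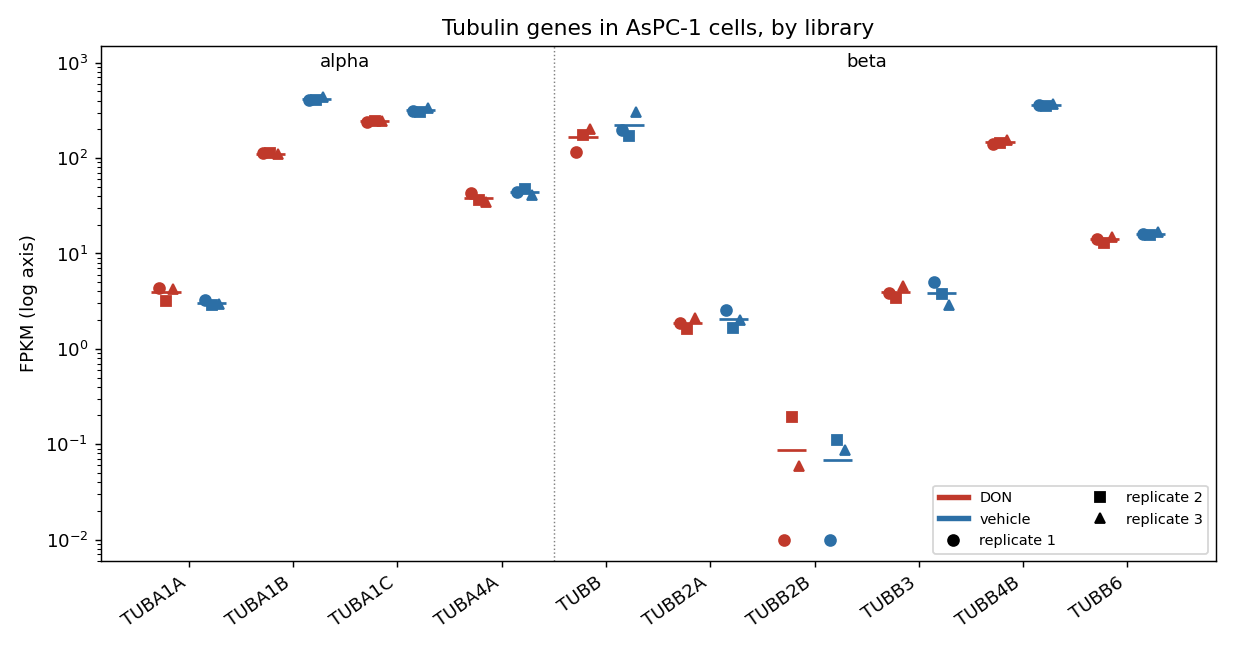
FPKM (log axis) of the 10 tubulin genes in each library, DON in red and vehicle in blue; symbols mark the replicate number and lines the group mean. TUBA1B lies between 110 and 113 FPKM in DON and between 410 and 433 FPKM in vehicle, and TUBB4B and TUBA1C also separate the groups, while TUBB spreads widely within each.

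Among the alpha tubulins, TUBA1B had 113, 112 and 110 FPKM in the 3 DON libraries, against 410, 410 and 433 FPKM in the 3 vehicle libraries. Every DON library lay far below every vehicle library, and the spread within a group was small beside the gap. The means were 112 ± 1.76 FPKM in DON and 418 ± 13.5 FPKM in vehicle (SD, n = 3 each). On the log2(FPKM + 1) scale the change was -1.89 ± 0.07 (SE, 95% interval -2.07 to -1.72, limma adjusted p = 2.2e-05). Ordered by that change, TUBA1B stood 61st from the lowest of the 11471 tested genes.

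TUBA1C had 238, 244 and 245 FPKM in DON, against 312, 306 and 336 FPKM in vehicle. The groups did not overlap, yet the difference was much smaller than for TUBA1B. The means were 242 ± 4.10 FPKM in DON and 318 ± 15.9 FPKM in vehicle (log2 fold change -0.39 ± 0.08 SE, limma adjusted p = 0.00805).

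TUBA4A, an alpha isotype known for its abundance in platelets, had 42.9, 36.1 and 34.8 FPKM in DON, against 43.6, 46.9 and 41.3 FPKM in vehicle. The groups overlapped through DON 1 alone. The difference was not called (log2 fold change -0.21, 95% interval -0.46 to 0.04, limma adjusted p = 0.155). It passed without DON replicate 1 (adjusted p = 0.0421) and with a correction for trends with GC content within each group (adjusted p = 0.0430). Both settings also raised the calls over all tested genes, from 2096 higher and 2363 lower. Without DON 1 there were 2133 and 2523, and with the GC correction 2310 and 2651 of 10894. That correction takes out scatter within groups without the fit accounting for it.

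TUBA1A, the alpha isotype known from developing neurons, was low, with 4.38, 3.21 and 4.2 FPKM in DON, against 3.25, 2.90 and 2.97 FPKM in vehicle. Its groups overlapped only at DON 2 and vehicle 1. Its estimate was the one positive value among the alpha members and was not called (log2 fold change 0.28, 95% interval -0.019 to 0.58, limma adjusted p = 0.121).

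Among the beta tubulins, TUBB4B had 141, 143 and 155 FPKM in DON, against 364, 353 and 372 FPKM in vehicle. As with TUBA1B, the groups lay far apart. The means were 146 ± 7.48 FPKM in DON and 363 ± 9.36 FPKM in vehicle (log2 fold change -1.30 ± 0.08 SE, 95% interval -1.49 to -1.12, limma adjusted p = 8.41e-05).

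TUBB, the common beta isotype of most cells, had 116, 174 and 204 FPKM in DON, against 196, 173 and 306 FPKM in vehicle. The groups overlapped, and each spread widely. The difference was not called (log2 fold change -0.44, 95% interval -1.08 to 0.20, limma adjusted p = 0.236). The libraries differed along a second axis that crosses the treatment: the second principal component of all tested genes held 19.7% of the variance and set vehicle 1, vehicle 2 and DON 1 apart from vehicle 3, DON 2 and DON 3. Within the first of these sides the change of TUBB in DON was -0.66 on the log2 scale, and within the second -0.70. DON 1 alone stands for DON in the first side, and vehicle 3 alone for vehicle in the second, so neither value has replicates in both groups. With a term for that split, drawn from these same data, the change was -0.68 and passed (limma adjusted p = 0.000612). The same term raised the calls over all 11471 tested genes to 2884 higher and 3147 lower, against 2096 and 2363 without it. The labels give no batch that would match the split. Along it, the deviation of a library from its group mean ran with transcript GC content, with Spearman correlations across genes of 0.505 in DON 1, 0.228 in vehicle 1 and 0.303 in vehicle 2, against -0.417 in DON 2, -0.410 in DON 3 and -0.401 in vehicle 3. The GC correction removed such trends within each group and left the difference between groups in place. With it TUBB was not called (limma adjusted p = 0.243), and the part of GC content in its spread was not tested further.

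TUBB6, a widely expressed beta isotype, had 14.3, 13.0 and 14.8 FPKM in DON, against 15.8, 15.6 and 16.7 FPKM in vehicle. Its groups did not overlap, as was the case for 4 of the 9 tested members and for 51.5% of all tested genes. The difference was small and not called (log2 fold change -0.18, 95% interval -0.39 to 0.02, limma adjusted p = 0.140).

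The isotypes best known from neurons were low in these cells. TUBB3 had 3.83, 3.44 and 4.52 FPKM in DON, against 4.98, 3.78 and 2.91 FPKM in vehicle, and TUBB2A had 1.86, 1.60 and 2.10 FPKM in DON, against 2.54, 1.66 and 2.0 FPKM in vehicle. Both overlapped between groups, and neither was called. The interval for TUBB3 ran from -0.39 to 0.44 and that for TUBB2A from -0.44 to 0.25, with limma adjusted p of 0.916 and 0.629, so changes of that size in either direction were not resolved. TUBB2B was at 0.010, 0.194 and 0.0596 FPKM in DON and at 0.010, 0.110 and 0.0867 FPKM in vehicle, where 0.01 is the lowest value the table holds.

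**Figure D2:**
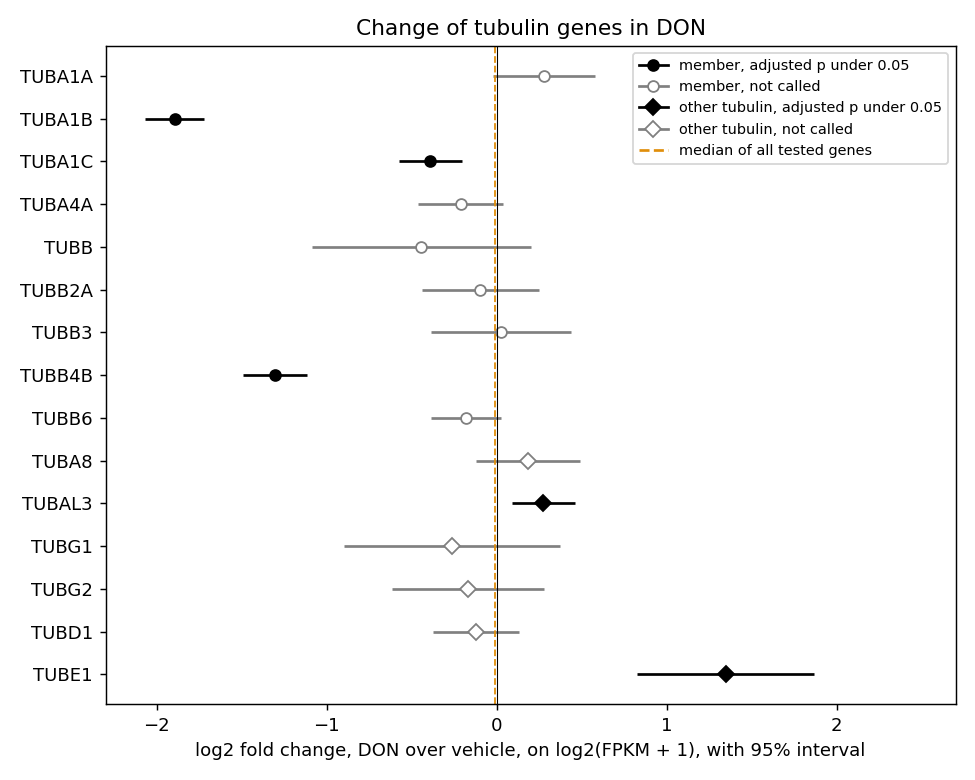
Log2 fold change, DON over vehicle, on the log2(FPKM + 1) scale with its 95% interval for the 9 tested members (circles) and 6 other tested tubulins (diamonds); filled symbols passed an adjusted p of 0.05 and the dashed line is the median of all tested genes. TUBA1B, TUBB4B and TUBA1C lie below 0 and TUBE1 and TUBAL3 above it.

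FPKM is per length, so levels can be set beside each other. In DON the order was TUBA1C (242 FPKM), TUBB (165), TUBB4B (146) and TUBA1B (112), whereas in vehicle it was TUBA1B (418), TUBB4B (363), TUBA1C (318) and TUBB (225). In DON the libraries of TUBB and TUBB4B overlapped, while TUBA1C lay above and TUBA1B below them in every library. In vehicle no neighbours in the order overlapped, although the highest TUBB library, vehicle 3, came within 1 FPKM of the lowest TUBA1C library.

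The make-up of the alpha pool changed accordingly. TUBA1B held 28.4%, 28.3% and 27.8% of the summed alpha FPKM in DON, against 53.3%, 53.5% and 53.2% in vehicle. TUBA1C held 61.2 ± 1.35% in DON and 40.6 ± 0.670% in vehicle, and TUBA4A held 9.58 ± 1.04% in DON and 5.62 ± 0.530% in vehicle (SD, n = 3 each). The share of TUBA1B was nearly constant within each group. The ratio of TUBA1B to TUBA1C was 0.476, 0.458 and 0.447 in DON, against 1.31, 1.34 and 1.29 in vehicle. An exact two-sided permutation test over libraries gave p = 0.10, the smallest that 3 against 3 libraries allow (adjusted p = 0.20 over 2 ratios, chosen with their values known).

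In the beta pool, TUBB4B held 51.0%, 42.6% and 40.8% in DON, against 62.3%, 64.6% and 53.2% in vehicle, and TUBB held 49.1 ± 6.41% in DON and 36.3 ± 6.52% in vehicle. The 2 groups did not overlap for TUBB4B, but its share varied more within a group than that of TUBA1B. The ratio of TUBB4B to TUBB was 1.22, 0.820 and 0.760 in DON, against 1.85, 2.05 and 1.22 in vehicle (exact two-sided permutation p = 0.20, adjusted p = 0.20), and DON 1 overlapped vehicle 3.

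Summed over members, alpha tubulin stood at 398, 396 and 394 FPKM in DON, against 769, 766 and 814 FPKM in vehicle, and beta tubulin at 277, 335 and 381 FPKM in DON, against 584, 547 and 700 FPKM in vehicle. The alpha sum was 1.98-fold lower and the beta sum 1.84-fold lower in DON by the ratio of means, given as a description without a test. The beta to alpha ratio was 0.696, 0.848 and 0.966 in DON and 0.759, 0.714 and 0.860 in vehicle, and the groups overlapped. TUBA1C and TUBB4B had the highest mean FPKM of their class over all 6 libraries. Without them the log2 ratio of the sums was -1.60 for alpha and -0.42 for beta, against -0.98 and -0.88 with them. TUBA1C fell 1.31-fold and TUBB4B 2.48-fold, so these omissions were unlike. The contrast between -1.60 and -0.42 follows from which gene was left out and does not compare the classes. Together the 10 genes made up 0.121% to 0.147% of the summed FPKM of a DON library, against 0.240% to 0.286% of a vehicle library.

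**Figure D3:**
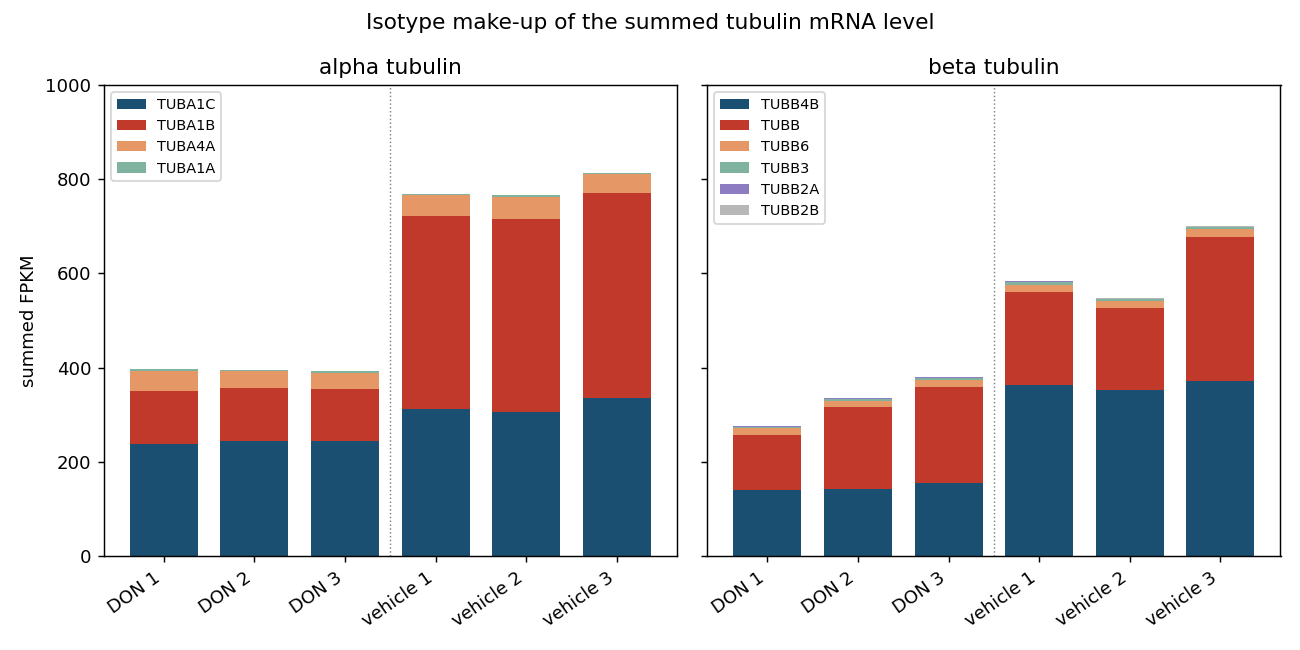
Summed FPKM of the alpha (left) and beta (right) tubulin members in each library, stacked by isotype. The alpha sum is 394 to 398 FPKM in DON and 766 to 814 FPKM in vehicle, with the TUBA1B segment the one that differs most; in the beta pool it is TUBB4B.

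How far reads can be assigned to one member differed between isotypes. Coding sequences were 85.0% to 97.3% identical between pairs of alpha members, 81.3% to 98.1% between pairs of beta members and 54.7% to 56.8% between alpha and beta. Reads were 75 bases long, so each transcript was divided into all its 75-base windows. A window was called shared where the same letters stood in a transcript of another gene, pseudogenes included. Genes that overlap a member on its own strand were not counted, which left out a readthrough gene at TUBB3. TUBA1B shared 48.4% of its windows, TUBA1C 17.0% and TUBA1A 27.1%. TUBB2A and TUBB2B shared 60.4% and 49.5%, mostly with each other. TUBB4B shared 5.37%, TUBB 8.44%, TUBB3 6.55% and TUBA4A 3.02%, and TUBB6 shared none. No window that lay wholly in the 3′ untranslated region of a member was shared. How reads from shared windows were assigned is not given in the sources used here, so the separate values of TUBA1A, TUBA1B and TUBA1C, and those of TUBB2A and TUBB2B, are uncertain. The value of TUBB3 is uncertain as well, since the readthrough gene covered 48.1% of its exonic bases.

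**Figure D4:**
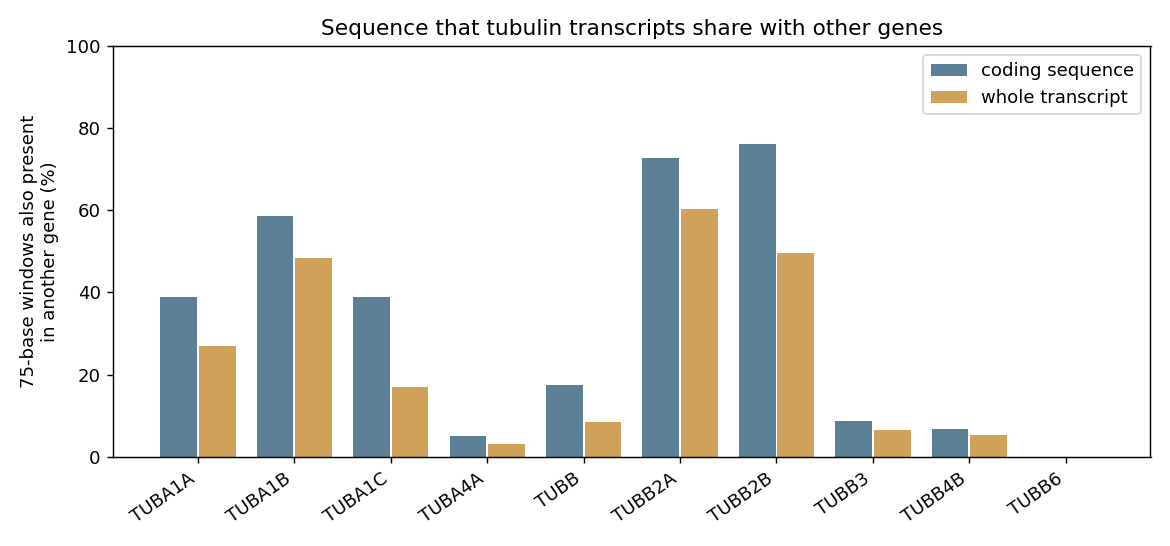
Share of 75-base windows of each tubulin transcript (percent) whose letters also occur in a transcript of another gene, for the coding sequence and for the whole transcript. Genes that overlap a member on its own strand are left out, as at TUBB3. Of the sharing shown, that of TUBB2A, TUBB2B and TUBA1B is highest, and TUBB6 has none.

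Summed rows hold a shared read whichever summed member received it, unless such reads were dropped, yet they still depend on the division. FPKM divides by transcript length, and the transcripts used here had 1915 bases in TUBA1A, 1627 in TUBA1B and 3001 in TUBA1C. By these lengths a read adds more to the sum when given to TUBA1B than to TUBA1C. Windows shared with other genes also touch the sums. TUBA1B shared 11.2% of its windows with a pseudogene, and TUBB2A shared 13.1% with a pseudogene and 7.30% with TUBB3. TUBA1A, TUBA1B and TUBA1C together had 355, 359 and 359 FPKM in DON, against 726, 719 and 773 FPKM in vehicle. When this sum replaced the separate rows in the fit it fell (log2 fold change -1.04 ± 0.08 SE, limma adjusted p = 0.000152). The sum of TUBB2A and TUBB2B was 1.87, 1.80 and 2.16 FPKM in DON, against 2.55, 1.77 and 2.09 FPKM in vehicle, and was not called (log2 fold change -0.086, adjusted p = 0.639).

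Overlap with genes on the opposite strand is a further limit, since the library kit keeps strand but its use in counting is not stated. Annotated exons on the opposite strand covered 72.6% of the exonic bases of TUBA1B (a non-coding RNA gene), 19.2% of TUBA1C, 16.0% of TUBB, 23.4% of TUBA4A (STK16, mean 16.0 FPKM), 20.5% of TUBB6 (AFG3L2, mean 50.0 FPKM) and 7.51% of TUBB4B (FAM166A, mean 0.0442 FPKM). On the same strand, a readthrough transcript covered 48.1% of the exonic bases of TUBB3. If strand was not used, reads of such partners cannot be told apart in the overlaps.

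Promoter windows are shown for the pair of members that fell most, TUBA1B and TUBB4B. Whether these genes are regulated together was not tested. They run from 250 bases before to 50 bases after the annotated start (RefSeq, GRCh38.p14), 5′ to 3′ on the gene's strand, with matches on either strand to the CCAAT box, to the GC box letters GGGCGG or to the TATA box letters TATAAA in capitals.
TUBA1B (chr12:49131346-49131645, minus strand): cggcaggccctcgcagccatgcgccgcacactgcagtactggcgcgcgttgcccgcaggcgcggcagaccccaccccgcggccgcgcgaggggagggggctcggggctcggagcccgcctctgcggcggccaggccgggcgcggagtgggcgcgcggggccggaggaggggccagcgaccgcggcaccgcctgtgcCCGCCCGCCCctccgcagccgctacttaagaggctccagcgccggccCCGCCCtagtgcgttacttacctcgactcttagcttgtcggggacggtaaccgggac
TUBB4B (chr9:137241037-137241336, plus strand): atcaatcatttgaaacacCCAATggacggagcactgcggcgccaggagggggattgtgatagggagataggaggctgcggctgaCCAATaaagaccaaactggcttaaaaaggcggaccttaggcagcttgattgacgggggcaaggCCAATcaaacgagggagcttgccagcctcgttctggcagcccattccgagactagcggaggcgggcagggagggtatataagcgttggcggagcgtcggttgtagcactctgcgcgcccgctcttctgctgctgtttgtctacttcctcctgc
TUBA1B had 3 matches to GGGCGG, of which a pair overlap, and none to CCAAT, while TUBB4B had 3 matches to CCAAT and none to GGGCGG. Over all 27305 promoter windows of the same length, 35.7% held CCAAT, 44.6% GGGCGG and 12% TATAAA. Of the 10 members, 5 held CCAAT, 5 GGGCGG and 1 TATAAA. These are matches of letters in a window and no more.

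Among the other tubulin genes, 6 of 13 were tested, 2 rose and 0 fell. TUBE1, epsilon tubulin of the centriole, had 16.6, 22.1 and 24.3 FPKM in DON, against 7.0, 5.81 and 10.5 FPKM in vehicle, with no overlap. It rose 2.71-fold by the ratio of means (log2 fold change 1.35 ± 0.22 SE, limma adjusted p = 0.00358). Annotated exons of WISP3 on the opposite strand cover 9.01% of its exonic bases, at a mean of 0.684 FPKM.

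TUBAL3, an alpha tubulin-like gene, had 25.3, 24.9 and 25.4 FPKM in DON, against 21.5, 19.5 and 21.0 FPKM in vehicle. It rose by 0.27 on the log2 scale (limma adjusted p = 0.0300), but leaving out DON replicate 1, 2 or 3 or vehicle replicate 2 or 3 ended the call, at adjusted p up to 0.104.

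TUBG1, the gamma tubulin that nucleates microtubules, averaged 10.1 ± 1.83 FPKM in DON and 12.9 ± 5.52 FPKM in vehicle (SD, n = 3 each, limma adjusted p = 0.471). With the term for the split of libraries it passed as lower in DON (limma adjusted p = 0.0320). That term also raised the calls over all tested genes, as given for TUBB. TUBG2, TUBD1 and TUBA8 averaged 1.86, 4.39 and 1.15 FPKM in DON and 2.26, 4.86 and 0.887 FPKM in vehicle and were not called, at adjusted p of 0.511, 0.405 and 0.289. The others, TUBA3C, TUBA3D, TUBA3E, TUBA4B, TUBB1, TUBB4A and TUBB8, stayed below the filter and were not tested.

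The chain of tubulin folding runs from prefoldin through the CCT chaperonin to the tubulin cofactors. Of 21 tested genes of this list 3 rose and 5 fell, with a median log2 fold change of -0.027. The number that fell was 2 without DON 2 or vehicle 1, and 3 without vehicle 2. In the CCT chaperonin 0 of 8 subunits rose and 1 fell, with estimates between -0.37 and 0.16. In prefoldin 2 of 6 rose and 0 fell. PFDN2, a prefoldin subunit, averaged 195 ± 5.10 FPKM in DON and 96.3 ± 3.55 FPKM in vehicle (log2 fold change 1.01, limma adjusted p = 0.000156). Of 5 tested cofactor genes 1 rose and 2 fell. TBCB, which acts on alpha tubulin, fell to 39.2 ± 1.20 FPKM in DON, against 64.3 ± 4.96 FPKM in vehicle (adjusted p = 0.00119). TBCD, which acts on beta tubulin, fell to 10.6 ± 2.67 FPKM in DON, against 20.3 ± 4.03 FPKM in vehicle (adjusted p = 0.0142). The TBCD call was lost without DON 2, vehicle 1 or vehicle 2 and without the filter, at adjusted p up to 0.0973.

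In the list for tubulin mRNA decay, TTC5 was not called, at 5.69 ± 0.997 FPKM in DON and 5.31 ± 1.07 FPKM in vehicle (log2 fold change 0.088, 95% interval -0.31 to 0.49, limma adjusted p = 0.707). Of all 12 tested genes, which include its partner SCAPER and the CCR4-NOT deadenylase subunits, 3 rose and 0 fell (median 0.13), and 1 rose without DON 2, DON 3 or vehicle 2. CNOT6L, a catalytic subunit, rose to 7.18 ± 0.380 FPKM in DON, against 4.49 ± 0.156 FPKM in vehicle (adjusted p = 0.00293). CNOT3 and CNOT10 also rose (adjusted p = 0.0379 and 0.0289). The CNOT3 call was lost without DON 2, DON 3, vehicle 2 or vehicle 3 and without the filter, at adjusted p up to 0.130. The CNOT10 call was lost without DON 2, DON 3, vehicle 1, vehicle 2 or vehicle 3, at adjusted p up to 0.107.

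Of 14 tested tubulin-modifying enzymes 1 rose and 1 fell (median -0.064). SIRT2, which can deacetylate alpha tubulin, rose to 30.2 ± 1.27 FPKM in DON, against 20.5 ± 1.54 FPKM in vehicle (limma adjusted p = 0.00357). TTLL12, of the tubulin ligase-like family, fell to 20.9 ± 1.35 FPKM in DON, against 30.2 ± 1.27 FPKM in vehicle (adjusted p = 0.00400).

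Of 22 tested genes of microtubule nucleation 3 rose and 6 fell (median -0.094). Without DON 2 the counts were 1 and 2, without vehicle 2 they were 2 and 2, and without DON 3 or vehicle 1 3 fell. CKAP5, a microtubule polymerase, fell to 18.3 ± 0.330 FPKM in DON, against 29.7 ± 1.86 FPKM in vehicle (limma adjusted p = 0.00112). HAUS7, of the augmin complex, fell 1.55-fold (adjusted p = 0.0103, and 0.0544 without the filter). MZT2A, of the gamma tubulin complex, fell 1.62-fold (adjusted p = 0.0299), but its near-identical copy MZT2B makes its value uncertain and the call was lost without DON 2, DON 3, vehicle 1 or vehicle 2 and without the filter, at adjusted p up to 0.158.

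Of 26 tested microtubule-associated and severing proteins 5 rose and 5 fell (median -0.051). The number that fell was 1 without DON 2 or vehicle 2, and 2 without DON 3 or vehicle 1. STMN1, which binds tubulin dimers and destabilises microtubules, had 258, 238 and 197 FPKM in DON, against 636, 635 and 511 FPKM in vehicle. It fell 2.57-fold with no overlap between groups (log2 fold change -1.36 ± 0.14 SE, limma adjusted p = 0.000496). CLIP4 and CLIP1, of the family that binds growing microtubule ends, rose 1.85-fold and 1.77-fold (adjusted p = 0.000515 and 0.0103, the CLIP1 call being lost without the filter at 0.0707). These 5 lists and the other tubulins were drawn up with earlier results of these data known. Together they held 101 tested genes, 17 higher (16.8%) and 17 lower (16.8%), near the shares over all tested genes of 18.3% and 20.6%. Without DON 2 the counts were 10 higher and 6 lower, without DON 3 10 were lower, without vehicle 1 8 were lower, and without vehicle 2 there were 11 higher and 7 lower.

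**Figure D5:**
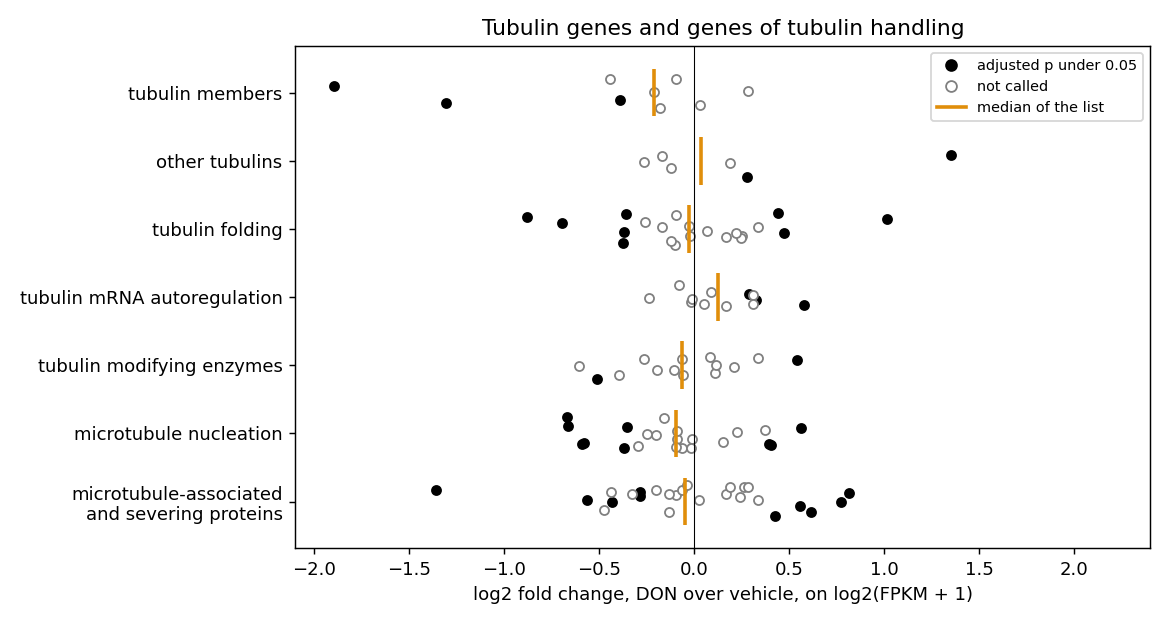
Log2 fold change, DON over vehicle, on the log2(FPKM + 1) scale of every tested gene among the members, the other tubulins and the 5 related lists; filled points passed an adjusted p of 0.05 and orange bars are list medians. The falls of TUBA1B (-1.89), STMN1 (-1.36) and TUBB4B (-1.30) lie farthest to the left and the rise of TUBE1 (1.35) farthest to the right.

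For each class, the member with the highest mean FPKM over the 6 libraries was taken. The genes most like it in pattern over these libraries were sought by the mean absolute difference in centred log2(FPKM + 1). For TUBA1C they were ZADH2 (0.020), ZNF592 (0.022) and MYO6 (0.024). For TUBB4B they were CNNM1 (0.029), HMGB2 (0.032) and HNRNPAB (0.042). HMGB2, a chromatin protein, averaged 81.4 ± 2.45 FPKM in DON and 202 ± 5.96 FPKM in vehicle. Its log2 fold change was -1.30, as for TUBB4B, a likeness that follows from how it was picked.

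FPKM sums per library ran from 525200 to 556950 in DON and from 528916 to 547510 in vehicle, and absolute depth is unknown. The 6 epithelial and ductal markers with a value in every library summed to 2930 to 4102 FPKM in DON and 3467 to 4479 FPKM in vehicle, while KRT8 and KRT18 carried failure marks. Most of that sum was EPCAM and KRT19, whose groups overlapped. MUC1 averaged 19.3 FPKM in DON and 42.9 FPKM in vehicle, CLDN4 averaged 505 FPKM in DON and 784 FPKM in vehicle, and CDH1 averaged 36 FPKM in DON and 30.8 FPKM in vehicle, each with no overlap between groups. All 6 neuron markers, all 4 endothelial markers and all 6 acinar and islet markers stayed below 1 FPKM in every library. Of 6 fibroblast markers 5 did, with LUM at 88.1 to 124 FPKM in DON and 141 to 171 FPKM in vehicle, and of 6 leukocyte markers 4 did, with LYZ at 75.6 to 112 FPKM in DON and 207 to 328 FPKM in vehicle. HLA-DRA, the other leukocyte marker above 1 FPKM, reached 3.46 FPKM in vehicle 1 and lay between 0.150 and 0.556 FPKM in the other 5 libraries. Their part in the tubulin results was not tested.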

How the data were processed

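Poly(A) RNA of 6 AsPC-1 libraries (3 DON, 3 vehicle) was sequenced with single reads of 75 bases, per the labels' protocols. The authors deposited FPKM values per gene symbol. STAR is named as a tool and hg19 as the build in the submitters' processing notes. Which program, annotation and strand setting gave the FPKM is not given in the sources used here. Columns named control were taken as vehicle by their number. The table holds no counts, so the depth of each library is unknown and intervals from counting were not made. Of 26228 rows, 41 held failure marks and were left out of tests.

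The 11471 genes that reached 1 FPKM in 3 or more libraries were tested on log2(FPKM + 1) with limma 3.58.1 (R 4.3.3), with an intensity trend, two-sided, adjusted by Benjamini-Hochberg over all tested genes. Fold changes on that scale understate changes of low genes. The fit was also run on simulated data whose noise was independent between genes. These libraries share a second axis of variation, so that run cannot show how reliable the calls here are. Python 3.11.15, pandas 2.3.3, numpy 2.4.6, scipy 1.17.1 and matplotlib 3.10.9 were used. Transcripts came from GENCODE (GRCh38), so no position from them is given; promoters matched all 10 symbols in RefSeq.

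Members and lists were chosen with earlier results of these data known. Named genes were all members, all other tubulins, TTC5 and the 3 called genes of largest change in each list. Added to these were the 3 genes nearest in pattern to the member of each class with the highest mean FPKM over all libraries. Alternatives were other filters, a pseudocount of 0.1, median-of-ratios and quantile scaling, no trend, a replicate block and a split term. Further ones were summed rows and leaving out each library. A GC correction was added after seeing the data. It subtracted a smooth curve over GC content of each library's deviation from its own group mean. Any trend with GC content between DON and vehicle was thus left in place. Same-numbered libraries correlated at 0.254, -0.184 and 0.502 in their deviations from group means, so the numbers were not taken to pair them.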

Additional observations from a re-analysis of the deposited data

How the results depend on the processing

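TUBA1B, TUBB4B and TUBA1C kept their direction and their call in all 15, 16 and 15 alternatives with a test, with log2 fold changes from -1.91 to -1.87, from -1.35 to -1.27 and from -0.42 to -0.32 and adjusted p up to 0.000604, 0.00140 and 0.0411. Within the sides of the library split, which give values with no test, TUBA1B was at -1.85 and -1.96, TUBB4B at -1.34 and -1.31 and TUBA1C at -0.38 and -0.46. Quantile scaling left these directions in place. Median-of-ratios factors ran from 0.997 to 1.02, too close together to reverse them. The DON and vehicle libraries of these genes did not overlap. A pseudocount of 0.1, the split term or leaving out 1 library therefore could not reverse direction, and only the call was open there. The other filters, no trend and the replicate block cannot move a log2 fold change, only its p-value, so direction was fixed there in advance. The GC correction acts within each group and could hardly move it either. The cause of the changes below was not tested unless the setting itself gives it. The number of tubulin genes called lower was 3, and 3 to 4 when 1 library was left out; 0 were called higher throughout. Without the filter, where more genes are tested, all called genes numbered 1391 higher and 1551 lower, against 2096 and 2363, and the related lists gave 9 lower. When 1 library was left out, all genes gave 1212 to 2133 higher and 1485 to 2523 lower, the lowest without DON 2, and the lists 10 to 19 higher and 6 to 22 lower. TUBB3 ran from -0.12 to 0.18 and TUBB2A from -0.19 to 0.012 with 1 library left out: TUBB3 turned to -0.058 without DON 3 and to -0.12 without vehicle 3, and TUBB2A to 0.012 without vehicle 1; none of these was called. The log2 ratio of the alpha sum ran from -1.0 to -0.96 and of the beta sum from -0.99 to -0.77 with 1 library left out, and the beta to alpha difference from -0.0100 to 0.22. Leaving out TUBA1C and TUBB4B, the members of highest mean over all libraries, gave -1.60, -0.42 and 1.19. TUBB4B fell more than TUBA1C, so these values depend on which gene was left out.

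With the replicate block, 3 tubulin genes were lower and all genes gave 2551 higher and 2863 lower. No label says that a number marks a shared culture or day, and DON 1 and DON 2 correlated best with vehicle 2 and vehicle 3, so the numbers may be shared by name only. FPKM alone gives no depth, so low genes such as TUBB2B could not be judged.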
